A study of Mus musculus with 30 samples.

Results

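The cerebellum of wild-type (WT) female mice at postnatal day 10 (P10) was compared with that of WT female mice at week 11. Each age was represented by 5 mice, and each mouse by 1 array, so the comparison rests on 10 of the 30 arrays of the study. The 10 were taken as every array that GEO's labels call WT at P10 or WT at week 11, and the WT arrays of P22 were left out. The labels describe the animals only as wild-type, without a background strain. The remaining groups were knock-in (KI) mice of a spinocerebellar ataxia 7 (SCA7) model and WT mice of P22. Of these, 5 KI mice at P10 and 6 KI mice at week 11 are used here beside the WT values. P10 mice were decapitated and week 11 mice were killed by cervical dislocation, so age and manner of death cannot be told apart. RNA of the whole cerebellum was amplified from its poly(A) tail and labelled with Cy5. A pool of all P10 mice, WT and KI together, was labelled with Cy3 and put on every array.

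All values below are log2 ratios of a mouse to that pool, and a change is the mean at week 11 minus the mean at P10, followed after ± by its standard error from limma. A change of 1 is a 2-fold rise. A gene is called, and is said to have risen or fallen, where its Benjamini-Hochberg adjusted p over all probes tested was under 0.05. Values of single mice are given in the order of the labels' mouse numbers, 1, 2, 5, 7 and 10 at P10 and 18, 20, 23, 32 and 33 at week 11. In bulk tissue, fewer cells of a type and less RNA per cell cannot be told apart.

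Between P10 and week 11 the mouse cerebellum is finished. At P10 granule cell precursors still divide beneath the pial surface, driven by Sonic hedgehog from Purkinje cells, and their daughters grow parallel fibres and migrate inward along Bergmann glia. In the adult this outer layer is gone, granule neurons are the most numerous neurons of the brain, Purkinje cells carry full dendritic trees, and synapses have exchanged juvenile receptor and channel subunits for adult ones. Over the same time oligodendrocyte precursors mature and lay down myelin, and the brain changes from milk-fed to glucose-based metabolism.

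The labelled tissue bore its markers: Gabra6 and Cbln3 of granule neurons, Pcp2 and Calb1 of Purkinje cells, and Zic1 were well above background on all 5 arrays of each age. Cy5 was well above background for 68.6% to 82.1% of the spots of an array. The 5 week 11 arrays resembled each other closely, with correlations of 0.73 to 0.91 over the probes with a value on both arrays, whereas the P10 arrays, whose ratios to a pool of their own age lie near 0, correlated at -0.35 to 0.61. The lowest of these was between P10 mice 1 and 5. The direction of the ratios rests on the dyes, which the labels state, and the authors' deposited value table runs the opposite way. WT P10 mouse 1, and in part mouse 2 of the same slide, stood apart before any test. In mouse 1 the median log2 ratio was -1.97 for markers of mature granule neurons, -1.65 for Purkinje cells and -1.95 for granule cell precursors, while the other P10 mice lay between -0.19 and 0.60, between 0.02 and 0.65, and between -0.23 and 0.69. The opposite held for brainstem markers, whose medians were 0.09 and -0.10 in mice 1 and 2 but -1.75 to -1.58 in the other 3. KI P10 mice 3 and 4, of the same slide, read alike, at -1.41 and -1.47 for granule neurons and -1.58 and -1.36 for Purkinje cells. Their precursor medians were -2.30 and -2.13 and their brainstem medians 0.48 and -0.04. KI P10 mice 6, 8 and 9 lay at -0.27 to 0.64, 0.04 to 0.84, 0 to 0.41 and -1.58 to -0.30 in these lists, in that order. The part of the slide was not tested. Values without WT P10 mice 1 and 2 are given where a called change, a printed median or a count of calls moved by over 1.5 times or turned. No slide held arrays of both WT groups. Slide was taken into account as a random block in the 10 arrays, and as a fixed block in a fit on all 30 arrays that links the slides through KI and P22 mice.

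Of 32092 probes tested, 8370 were called, 4041 of them higher and 4329 lower at week 11, so the background rate was 26.1% in either direction, 12.6% upward and 13.5% downward. At the level of genes, each read by its brightest probe, 5194 of 17896 were called (29%), with 2476 higher (13.8%) and 2718 lower (15.2%). The median change over all genes was 0.00. Of the called genes, 695 had an estimated rise and 937 an estimated fall of more than 2-fold. The calls are against no change, and a test against a 2-fold change called 231 probes. The 5 week 11 values lay wholly above or below the 5 P10 values in 4153 genes (23.2%). Where arrays were centred on their median in place of loess, 63.2% of the 8394 probes called were higher, against 48.3% of those called above, and the median change over all probes was 0.067 in place of 0.012. With slide as a random block 5141 probes were called, all of them among the 8370. With slide as a fixed block over all 30 arrays 4622 were called, of which 3222 were among the 8370 in the same direction. Counts of list members under these 2 settings stand beside 5141 and 4622 of 32092 probes, and not beside the higher background rate above. The genes below are grouped into 46 lists, which hold 587 genes, 556 of them with a tested probe. Counts of members that rose or fell stand beside 13.8% and 15.2% of all genes, also where these shares are not repeated.

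**Figure D1:**
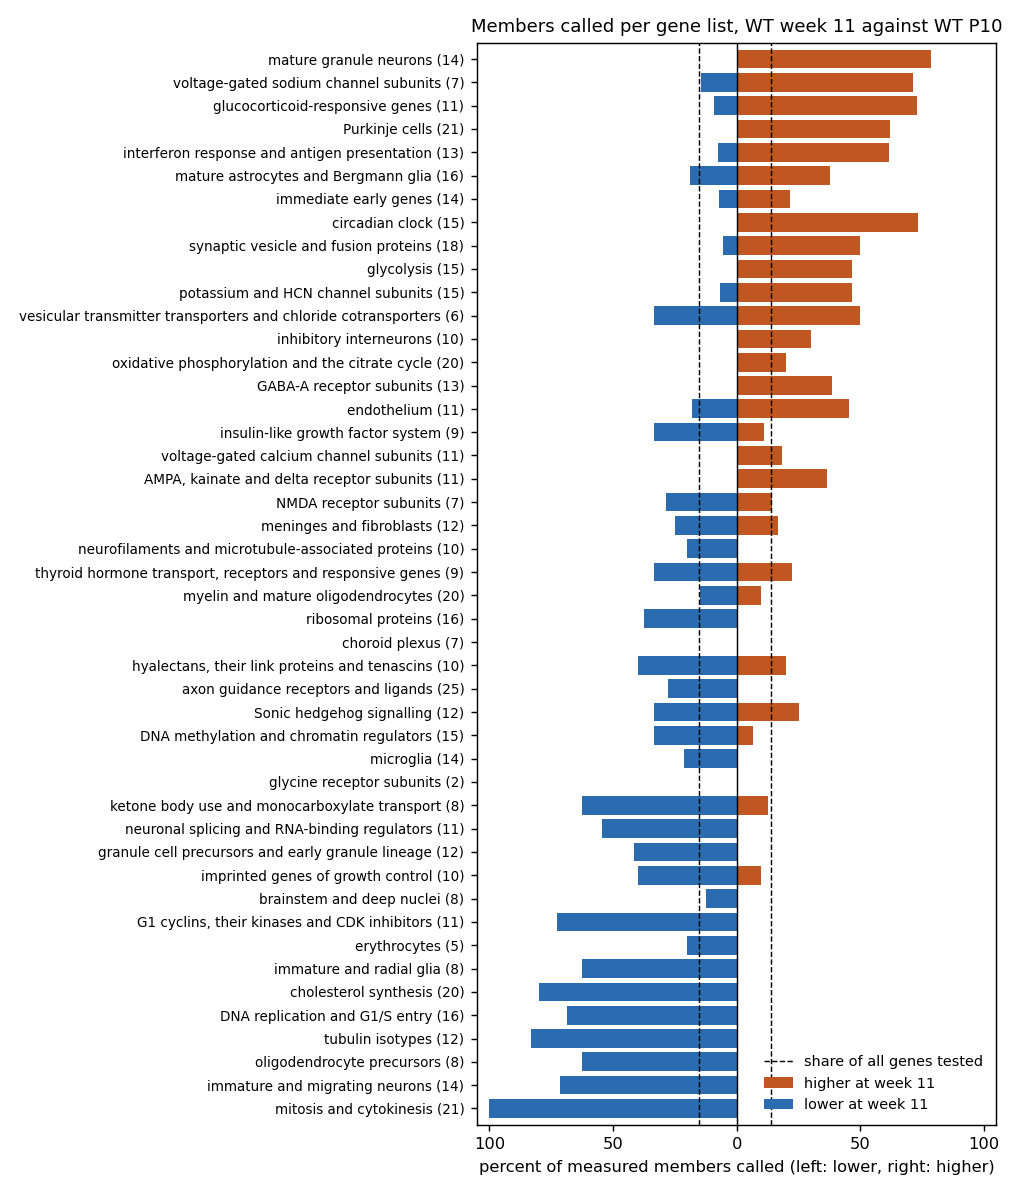
Share of the measured members of each of the 46 gene lists that were called lower (blue, to the left) or higher (orange, to the right) at week 11 in WT mice, with the number measured in brackets and lists ordered by median change. Dashed lines give the shares over all genes tested, 15.2% and 13.8%; the list of mitosis and cytokinesis has all 21 members on the left and that of mature granule neurons 11 of 14 on the right.

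Of the 46 lists, that for mitosis and cytokinesis had the lowest median. All 21 of its measured members were called lower, with a median change of -2.60, where the median of all genes was 0.00. Ube2c, the ubiquitin-conjugating enzyme that works with the anaphase-promoting complex, had log2 ratios of -1.11, 0.13, 0.71, 0.84 and -0.08 at P10 and -3.07, -2.97, -3.08, -2.95 and -2.90 at week 11, a change of -3.09 ± 0.30 (adjusted p = 5.71e-05). The week 11 mice lay within 0.2 of each other and far below even the lowest P10 mouse, which was mouse 1. Mki67, the proliferation marker Ki-67, went from -1.15, 0.02, 1.28, 0.88 and -0.67 to -3.70, -3.50, -3.88, -3.52 and -3.70, a change of -3.73 ± 0.39 or a 13.3-fold fall. The mitotic kinase Plk1 changed by -2.28 ± 0.23 and the spindle protein Nusap1 by -3.33 ± 0.36. The P10 mice ranged widely in these genes, with mice 5 and 7 high and mouse 1 low, but no P10 mouse reached down to the week 11 values in any of the 4. All 21 members remained called with slide as a random or fixed block and without any single mouse. Members without a tested probe were Ccna2 and Birc5.

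Promoters of these genes were searched for motifs. Both the list and the motifs were chosen with earlier results of these data known, so the shares describe the list and are not an independent test. Sequences were taken from RefSeq's promoter table (GRCm38.p6), which matched 16 of the 21 measured genes. CCAAT, the motif read by the trimeric factor NF-Y, stood on either strand within the 250 bases before the start in 15 of 16 windows (93.8%), against 33.8% of all 32851 windows in the table. The cell cycle homology region of G2 and M phase genes, searched as TTTGAA or TTCGAA on both strands, stood in 8 of 16 windows (50.0%), against 17.1% of all. Matches of CCAAT did not overlap those of the second motif in the windows shown. The 150 bases before the start are shown for the 4 members with the smallest p that have a single window holding both motifs in those bases, so Cdk1 and Top2a are named here for their promoters. Matches to either motif are in capitals, read along the gene's strand (ATTGG is CCAAT, and TTCAAA is TTTGAA, on the other strand).
Ube2c, chr2:164769779-164769928, plus strand: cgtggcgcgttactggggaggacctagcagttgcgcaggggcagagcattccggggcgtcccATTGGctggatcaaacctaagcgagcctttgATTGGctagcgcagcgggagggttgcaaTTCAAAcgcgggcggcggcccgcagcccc
Mki67, chr7:135716380-135716529, minus strand: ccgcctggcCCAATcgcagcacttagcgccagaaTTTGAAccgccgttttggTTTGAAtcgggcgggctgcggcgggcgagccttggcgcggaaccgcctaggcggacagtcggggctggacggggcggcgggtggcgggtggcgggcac
Cdk1, chr10:69352913-69353062, minus strand: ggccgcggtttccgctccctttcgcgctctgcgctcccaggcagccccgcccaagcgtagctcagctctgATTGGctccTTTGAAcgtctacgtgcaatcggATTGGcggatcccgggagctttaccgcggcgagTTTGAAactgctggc
Top2a, chr11:99024190-99024339, minus strand: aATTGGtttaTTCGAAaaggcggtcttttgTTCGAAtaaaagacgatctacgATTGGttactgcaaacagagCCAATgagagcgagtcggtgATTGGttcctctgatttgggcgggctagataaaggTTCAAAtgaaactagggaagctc
By the rule of choice each window shown carries CCAAT and at least 1 match of the second motif. Top2a holds 7 matches in all. A match of letters is a description of the window and not evidence of binding.

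The machinery of DNA replication fell with less uniformity. Of 16 measured members 11 were called lower and none higher, at a median of -1.16. Rrm2, the regulatory subunit of ribonucleotide reductase, changed by -2.92 ± 0.40, the helicase subunit Mcm6 by -2.39 ± 0.30, thymidylate synthase, Tyms, by -2.38 ± 0.36, and Gins2, of the replicative helicase, by -1.45 ± 0.19 (adjusted p = 0.000333). Gins2 read -0.30, 0.06, 0.56, 0.75 and 0.08 at P10 and -1.34, -1.38, -1.41, -1.02 and -0.93 at week 11, without overlap. Among G1 cyclins, their kinases and CDK inhibitors 8 of 11 fell and none rose (median -0.83). Both drivers and brakes of the cycle were among them: the kinases Cdk6 (-2.15 ± 0.24) and Cdk4 (-1.40 ± 0.16), and the inhibitors Cdkn1c (-1.80 ± 0.19), which encodes p57, and Cdkn2d (-0.59 ± 0.11), which encodes p19. For G1 genes the median was -1.49 with slide as a fixed block. Cdkn2d did not pass with slide as a fixed block (change -0.53, adjusted p 0.313). With the probes of a gene averaged the change of Cdk6 was -1.21.

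Sonic hedgehog signalling, the main mitogenic pathway of granule cell precursors, split. Of 12 measured members 3 rose and 4 fell, where 13.8% and 15.2% of all genes did. The ligand Shh rose from -0.16, -0.11, -0.30, -0.71 and 0.03 to 0.63, 0.60, 0.62, 0.57 and 0.81, a change of 0.90 ± 0.14 (adjusted p = 0.000694), with no overlap between ages. Its receptor Ptch1 (0.76 ± 0.14) and the co-receptor Boc (1.02 ± 0.21) rose too. In contrast, Mycn, the target through which the pathway drives precursor division, changed by -1.71 ± 0.30, and Sfrp1, a secreted Wnt inhibitor, by -2.74 ± 0.40. Mycn read -1.33, -0.07, 0.72, 0.35 and -0.06 at P10 and -2.05, -1.88, -1.67, -1.69 and -1.65 at week 11, and P10 mouse 1 again came closest to the adult values. For hedgehog genes the calls numbered 5 with slide as a random block and 3 as a fixed block. Shh, Ptch1 and Boc were not called with slide as a fixed block over all 30 arrays (changes 0.62, 0.14 and 0.74, adjusted p 0.128 to 0.894). The change of Ptch1 was 1.84 in the Cy5 channel alone.

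The list of granule cell precursors and the early granule lineage holds mostly transcription factors. Of 12 measured members 5 were called lower and none higher (median -0.51). Insm1, a zinc-finger factor of cells leaving the cycle, changed by -3.67 ± 0.52 (adjusted p = 0.000479), reading -2.64, -0.20, 0.89, 0.54 and -0.04 at P10 and -4.16, -3.88, -3.91, -3.97 and -3.86 at week 11. P10 mouse 1 lay closer to the adults than to the other P10 mice. Nhlh1, a factor of newly postmitotic neurons, changed by -3.61 ± 0.57, Barhl1 by -1.98 ± 0.36, and Atoh1, the master factor of the lineage, by -1.05 ± 0.24. Atoh1 read -0.92, -0.12, 0.61, 0.34 and 0.21 at P10 and -1.20, -1.03, -1.14, -0.86 and -0.89 at week 11, so mouse 1 overlapped the adults. The number called was 8 without P10 mouse 1. For precursor genes the median was -1.10 with slide as a fixed block, -1.09 without P10 mice 1 and 2, -0.94 in the Cy5 channel alone and -0.30 with median centring. Barhl1 was not called with scan day as a fixed block (change -2.53, adjusted p 0.0768). The change of Nhlh1 was -1.82 in the Cy5 channel alone.

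Genes of immature and migrating neurons fell, 10 of 14 measured members being called lower and none higher (median -1.38). Dpysl3, a collapsin response mediator of growing axons, read 0.06, 0.11, 0.17 and -0.15 (mouse 10 not usable) at P10 and -2.40, -2.37, -2.40 and -2.40 (mouse 33 not usable) at week 11, a change of -2.44 ± 0.11 (adjusted p = 5.38e-06). The 4 usable mice of each age lay close together and far from the other age. Marcksl1, which couples membrane signals to actin, changed by -2.79 ± 0.20, and the transcription factor Sox4 by -1.39 ± 0.12. Sox11, the relative of Sox4, fell further, by 13.4-fold (-3.75 ± 0.41), and Dcx, the microtubule protein doublecortin of migrating neurons, by 12.9-fold (-3.69 ± 0.41). In both, mouse 1 was lowest at P10, with -2.15 for Sox11 and -2.16 for Dcx, yet every week 11 mouse lay lower still. Members without a tested probe were Gap43 and Crmp1.

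Tubulin isotypes, the building blocks of the microtubules that fill growing neurites, fell nearly throughout: 10 of 12 were called lower and none higher (median -1.21). Tubb6 changed by -1.84 ± 0.14, from -0.21, -0.19, 0.01, 0.00 and 0.07 to -2.29, -2.13, -1.82, -1.73 and -1.57, and Tuba1c by -2.28 ± 0.34. Tubb2b (-1.93 ± 0.32), Tuba1a (-1.94 ± 0.31) and Tubb2a (-1.63 ± 0.26), which neurons use while they grow, fell as well, as did Tubb5 (-1.35 ± 0.24), Tubb4a (-1.07 ± 0.20), Tuba1b (-0.96 ± 0.22) and Tubb4b (-0.71 ± 0.12). Week 11 mouse 23 was the highest adult for several of these, as for Tuba1a, which read -1.48, -1.08, 0.11 and -1.37 (mouse 33 not usable) at week 11 against 0.99, 1.02, 0.77 and 1.14 (mouse 10 not usable) at P10. Tuba4a was called at -0.53 ± 0.17, but not without any of 6 mice taken singly, P10 mice 1, 2 and 10 and week 11 mice 18, 20 and 32 (adjusted p 0.0749 to 0.111), and it changed by -0.34 without P10 mice 1 and 2. The neuron-specific Tubb3 (-0.50 ± 0.22) and Tuba8 (0.41 ± 0.32) did not pass. Isotypes are near copies of each other, and cross-hybridisation between their probes was not tested. A second probe of Tubb6 was called in the opposite direction, at 0.55 ± 0.15 (adjusted p 0.0199). In the related list of neurofilaments and microtubule-associated proteins, 2 of 10 fell, Stmn4 (-0.76 ± 0.16) and Map2 (-0.80 ± 0.18), where 15.2% of all genes did. Without P10 mice 1 and 2 the change of Map2 was -0.53. For neurofilaments and microtubule-associated proteins the calls numbered 1 with slide as a random block and 3 as a fixed block. Tuba4a and Map2 were not called with slide as a random block (adjusted p 0.0801 and 0.0547). Tuba4a did not pass with slide as a fixed block (change -0.70, adjusted p 0.05). Tubb2a was not called with scan day as a fixed block (change -0.89, adjusted p 0.109). The change of Tubb2b was -1.06, that of Tuba1a -0.57, that of Tubb2a -0.75, that of Tuba4a -0.45 and that of Map2 -0.27 in the Cy5 channel alone. Tuba1a was saturated on 3 P10 arrays and 1 week 11 array, Tubb2a was saturated on 4 P10 arrays and 1 week 11 array, Tubb5 was saturated on 1 P10 array and Tuba1b was saturated on 1 P10 array, so these changes may be understated.

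Axon guidance receptors and ligands fell in 7 of 25 members and rose in none (median -0.32), where 15.2% of all genes fell and 13.8% rose. The strongest were Sema6a (-1.50 ± 0.17), a transmembrane semaphorin of migrating granule cells, the Slit receptor Robo2 (-1.74 ± 0.21), the ephrin receptor Ephb1 (-0.92 ± 0.12) and Plxna2 (-1.11 ± 0.21), a receptor of Sema6a. Sema6a read -0.42, -0.05, 0.23, -0.48 and -0.23 at P10 and -1.78, -1.82, -1.16, -1.84 and -1.85 at week 11, so that ligand and receptor were both lower in the adult. For guidance genes the calls numbered 11 without P10 mice 1 and 2. Ephb1 did not pass with slide as a fixed block (change -1.01, adjusted p 0.0537). The change of Plxna2 was -0.43 in the Cy5 channel alone.

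**Figure D2:**
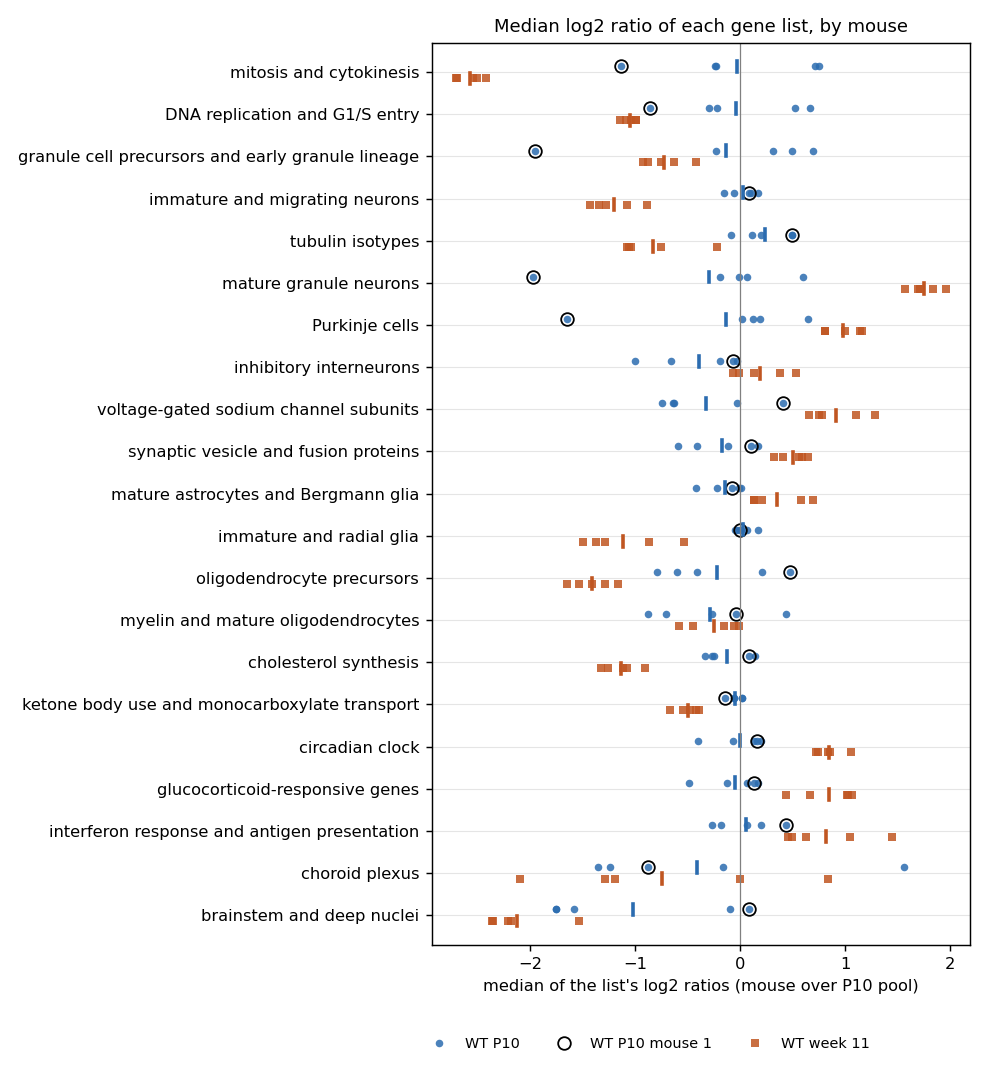
Median log2 ratio of mouse to P10 pool over the measured genes of 21 lists, 1 point per mouse: P10 in blue circles, week 11 in orange squares, vertical ticks the mean of the 5 mice, and a black ring around WT P10 mouse 1. The week 11 mice lie together at -2.70 to -2.42 for mitosis and at 1.57 to 1.96 for mature granule neurons, mouse 1 lies apart in the granule, Purkinje and precursor lists, and choroid plexus markers scatter over both ages.

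Markers of mature granule neurons rose: 11 of 14 were called higher and none lower, at a median of 1.82. Cbln3, a synaptic organiser made by granule neurons, rose 13.1-fold (3.71 ± 0.68). It read -3.70, -0.41, -0.66, -0.16 and 0.99 at P10 and 2.89, 2.45, 2.61, 2.84 and 3.80 at week 11, and mouse 1 lay far below the other P10 mice. Without that mouse the change of Cbln3 was 2.98. Chn2, a Rac-inactivating chimaerin, rose by 2.27 ± 0.18 (adjusted p = 3.07e-05), and Tiam1, a Rac activator, by 2.24 ± 0.21. Tiam1 read 0.00, 0.13, -0.11, -0.61 and 0.59 at P10 and 1.99, 1.94, 2.49, 2.27 and 2.51 at week 11, with mouse 1 in the middle of its age. Grin2c and Kcnd2, described below, complete the members with the smallest p. With scan day as a fixed block the change of Cbln3 was 1.36. For granule neuron markers the calls numbered 7 with slide as a random block and 4 as a fixed block. Cbln3 and Chn2 were not called with slide as a fixed block over all 30 arrays (changes 1.56 and 1.43, adjusted p 0.264 and 0.0674). The change of Tiam1 was 1.41 with slide as a fixed block.

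Purkinje cell markers rose in 13 of 21 members and fell in none (median 1.13). Among the members with the smallest p were Plcb4, the phospholipase below metabotropic glutamate receptors (1.47 ± 0.18), the calcium pump Atp2a3 (1.13 ± 0.18) and the modifying potassium channel subunit Kcng4 (1.76 ± 0.29). Plcb4 read -0.88, -0.16, -0.27, -0.49 and -0.27 at P10 and 1.59, 1.05, 1.04, 0.86 and 0.74 at week 11. Its week 11 mice lay above all P10 mice. For Purkinje cell markers the calls numbered 4 of 21 with slide as a random block and 4 as a fixed block. Over all probes these settings called 5141 and 4622 of 32092. The median was 0.20 with slide as a fixed block, 0.75 without P10 mice 1 and 2 and 0.65 in the Cy5 channel alone. Plcb4, Atp2a3 and Kcng4 did not pass with slide as a fixed block (changes 0.85, 0.52 and 0.20, adjusted p 0.182 to 0.793). The change of Atp2a3 was 0.63 in the Cy5 channel alone. Calb1 did not pass (1.66, adjusted p 0.0826). Its change was -0.03 with slide as a fixed block, and 0.95 without P10 mouse 1, where it was called (adjusted p 0.0311). Members without a tested probe included Inpp5a, Skor2 and Dner.

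Inhibitory interneuron markers rose in 3 of 10 members, where 13.8% of all genes did. Among them were Gad1 (1.83 ± 0.21), which makes GABA, and the receptor kinase Kit (1.36 ± 0.19) of molecular layer interneurons. Gad1 read -0.34, -0.47, -0.12, -0.83 and 0.08 at P10 and 2.07, 1.72, 1.28, 1.25 and 1.16 at week 11, without overlap. Tfap2b, a factor of interneuron precursors, did not pass (-0.40 ± 0.14, adjusted p = 0.0504). Without P10 mouse 1, 6 members were called. For interneuron markers the calls numbered 3 with slide as a random block, 1 as a fixed block and 8 without P10 mice 1 and 2. Kit was not called with slide as a fixed block over all 30 arrays (change 0.85, adjusted p 0.0913). The change of Gad1 was 0.92 with slide as a fixed block. The change of Kit was 0.81 in the Cy5 channel alone.

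Of 7 NMDA receptor subunit genes 1 was called higher and 2 lower, where 13.8% and 15.2% of all genes were. NMDA receptors need Grin1 together with a Grin2 subunit that sets their kinetics. The juvenile subunit Grin2b read 0.54, 0.37, 0.29, -0.40 and -0.24 at P10 and -1.50, -1.24, -1.29, -1.61 and -1.73 at week 11, a change of -1.59 ± 0.19 (adjusted p = 0.000163). Grin2c, the subunit of adult granule neurons, went the other way, from -0.46, 0.66, -0.45, -0.28 and 1.04 to 2.13, 2.04, 3.00, 2.22 and 2.63, a change of 2.30 ± 0.31 (adjusted p = 0.000346). The groups did not overlap in either gene. Grin3a was called lower (-0.94 ± 0.27), but not without P10 mouse 2 (adjusted p 0.0548) or week 11 mouse 23 (0.0536), nor with slide as a random block (0.0666), and it changed by -0.52 without P10 mice 1 and 2. The obligatory Grin1 (0.38 ± 0.29), Grin2d (-0.03 ± 0.11) and Grin3b (0.06 ± 0.15) did not pass, and Grin2a (-0.03 ± 0.10) was well above background on only 2 of 5 arrays at each age.

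Among AMPA, kainate and delta receptor genes 4 of 11 rose and none fell. Gria4 read -0.07, -0.07, 0.08 and -0.13 (mouse 1 not usable) at P10 and 1.24, 0.74, 1.26, 1.50 and 1.36 at week 11, a change of 1.27 ± 0.15. Gria1, the subunit prominent in Bergmann glia, rose by 1.62 ± 0.23 and Gria3 by 0.80 ± 0.18. The other probes of Gria3 read 0.85 ± 0.22 (adjusted p 0.0149) and -0.96 ± 0.20 (adjusted p 0.00404), so its called probes disagreed in direction. Gria2, the subunit that blocks calcium entry, did not pass (-0.12 ± 0.19), nor did any of the 5 kainate receptor genes, at -0.61 to 0.12. For AMPA, kainate and delta receptor genes the calls numbered 3 with slide as a random block and 1 as a fixed block. Gria1 and Gria3 did not pass with slide as a fixed block (changes 0.99 and 0.42, adjusted p 0.0732 and 0.429). Gria4 was not called with scan day as a fixed block (change 0.73, adjusted p 0.187).

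GABA-A receptors are the chloride channels of inhibition, and 5 of 13 subunit genes rose and none fell. Gabrb2, a subunit of the common synaptic receptor, read -0.72, -0.28, -1.08 and -0.47 (mouse 1 not usable) at P10 and 1.17, 1.03, 0.41, 1.07 and 1.06 at week 11, a change of 1.58 ± 0.20 (adjusted p = 0.000318). Gabra6 and Gabrd, which form the extrasynaptic receptor of granule neurons, changed by 3.54 ± 0.91 and 2.13 ± 0.54. Gabra6 read -4.95, -0.31, 0.07, 0.51 and 0.99 at P10 and 2.97, 2.79, 2.01, 3.25 and 3.00 at week 11, and its change was 2.49 without mouse 1 and 2.28 without mice 1 and 2. For Gabrd, at -2.38, 0.62, 0.26 and 0.71 (mouse 10 not usable) and 1.80, 1.66, 2.14, 2.05 and 2.02, it was 1.40 without mouse 1. Of the subunits that did not pass, Gabra2 changed by 0.24 ± 0.39, Gabra3 by -0.99 ± 0.36, Gabra5 by 0.06 ± 0.37 and Gabrg3 by -0.70 ± 0.24. Without P10 mouse 1, 8 were called. For GABA-A receptor genes the calls numbered 2 with slide as a random block and 2 as a fixed block. Gabra6 and Gabrd did not pass with slide as a random block (adjusted p 0.0863 and 0.0977). Gabrb2 and Gabra6 were not called with slide as a fixed block over all 30 arrays (changes 0.74 and 1.56, adjusted p 0.344 and 0.396). The change of Gabrd was 3.23 with slide as a fixed block. Gabrd was not called with scan day as a fixed block (change 0.48, adjusted p 0.833). Gabra6 was saturated on 1 week 11 array, so its change may be understated. Of glycine receptor genes only Glra1 (-0.52 ± 0.41) and Glra3 (-0.32 ± 0.42) were measured, and neither passed.

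**Figure D3:**
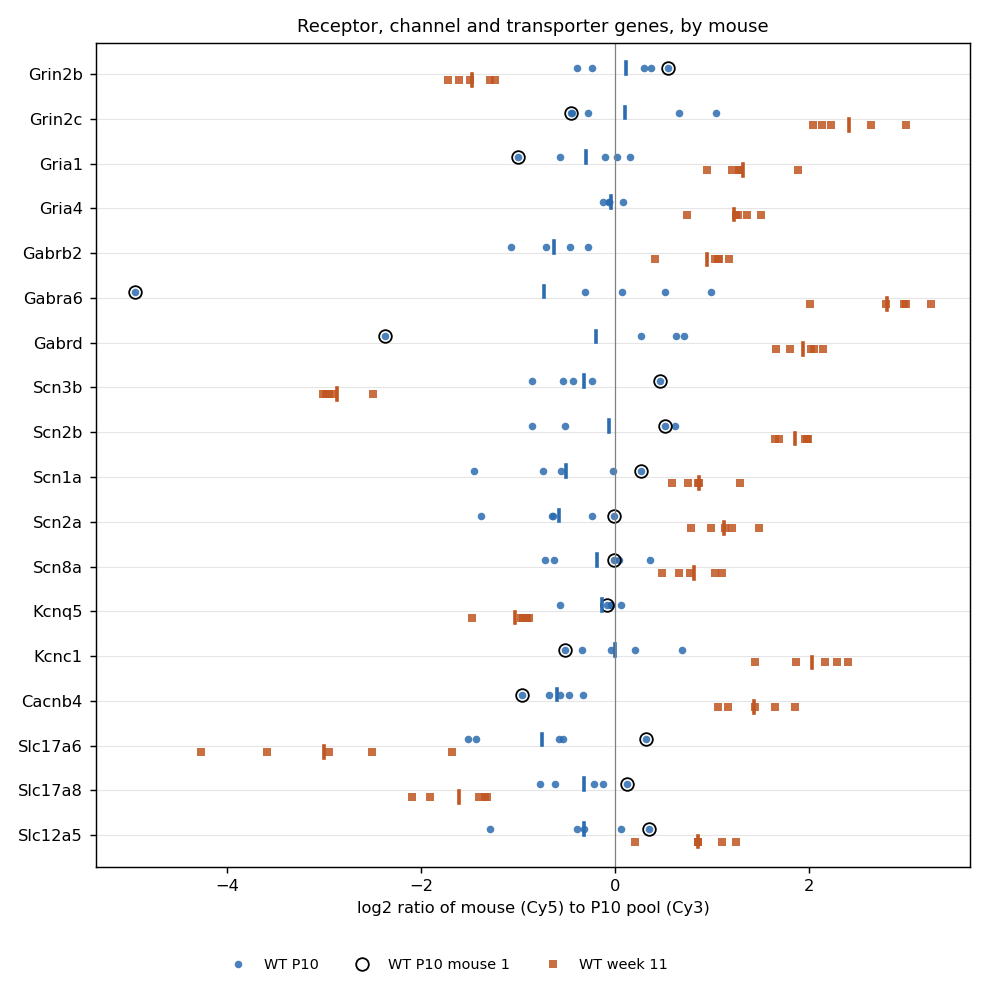
Log2 ratio of mouse to P10 pool for 18 receptor, channel and transporter genes, 1 point per mouse: P10 in blue circles, week 11 in orange squares, vertical ticks the group mean, and a black ring around WT P10 mouse 1. Grin2b, Scn3b, Kcnq5, Slc17a6 and Slc17a8 have lower means at week 11 and the other 13 higher ones, and mouse 1 stands far to the left only in Gabra6 and Gabrd.

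Voltage-gated sodium channel genes included a marked pair of opposite changes. Of 7 measured, 5 rose and 1 fell (median 1.37), and all 6 calls held with slide as a random or fixed block. The auxiliary subunit Scn3b, high in young neurons, read 0.46, -0.24, -0.44, -0.54 and -0.86 at P10 and -2.90, -2.50, -2.98, -3.01 and -2.95 at week 11, a change of -2.54 ± 0.21 (adjusted p = 2.97e-05). The auxiliary subunit Scn2b rose by 1.91 ± 0.29. Of the pore-forming subunits, Scn2a rose by 1.70 ± 0.23, Scn1a by 1.37 ± 0.28 and Scn8a, the channel of mature nodes and initial segments, by 1.00 ± 0.21. Scn2a read -0.01, -0.24, -0.64, -1.39 and -0.65 at P10 and 1.48, 1.13, 1.20, 0.99 and 0.78 at week 11. Only the embryonic form Scn3a did not pass (0.72 ± 0.31, adjusted p = 0.112), and Scn4b had no tested probe. Scn2b was not called with scan day as a fixed block (change 1.50, adjusted p 0.0885). The change of Scn1a was 0.84 in the Cy5 channel alone.

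Potassium and HCN channel genes rose in 7 of 15 members and fell in 1. Kcnc1, the fast Kv3.1 channel of granule neurons, read -0.52, 0.20, -0.34, -0.05 and 0.69 at P10 and 2.28, 2.16, 2.40, 1.86 and 1.44 at week 11, a change of 2.03 ± 0.24. Kcnd2, the A-type channel of granule neurons, rose by 1.44 ± 0.23, the calcium-activated channel Kcnma1 by 1.17 ± 0.15, and the axonal channels Kcna1 and Kcna2 by 1.30 ± 0.30 and 0.81 ± 0.18. Kcnq5, an M-current channel, was the exception and fell (-0.90 ± 0.15), from -0.09, -0.05, 0.06, -0.57 and -0.05 to -0.95, -0.97, -1.48, -0.91 and -0.89. Voltage-gated calcium channel genes rose in 2 of 11, beside 13.8% of all genes: Cacnb4, the auxiliary subunit mutated in ataxic lethargic mice, by 2.04 ± 0.17, from -0.96, -0.57, -0.69, -0.48 and -0.33 to 1.85, 1.65, 1.44, 1.16 and 1.06, and Cacnb2 by 0.78 ± 0.22. The call of Cacnb2 was lost without week 11 mouse 18 or 33 (adjusted p 0.0548 and 0.0502). No pore-forming calcium channel gene passed, the P/Q-type Cacna1a reading 0.50 ± 0.27. For potassium and HCN channel genes the calls numbered 5 with slide as a random block and 3 as a fixed block. For calcium channel genes the calls numbered 1 with slide as a random block and 1 as a fixed block. Kcna1 and Cacnb2 did not pass with slide as a random block (adjusted p 0.0745 and 0.107). Kcnc1, Kcnd2, Kcnma1, Kcna1, Kcna2 and Cacnb2 were not called with slide as a fixed block over all 30 arrays (changes 1.24, 1.03, 0.68, 1.10, 0.97 and 0.63, adjusted p 0.0983 to 0.259). The change of Kcnq5 was -1.46 and that of Cacnb4 1.24 with slide as a fixed block. The change of Kcnq5 was -1.36 and that of Cacnb2 0.57 in the Cy5 channel alone.

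Vesicular glutamate transporters, which load the transmitter into vesicles, moved in opposite directions. Slc17a6, or VGLUT2, read 0.31, -0.58, -0.54, -1.52 and -1.44 at P10 and -2.51, -1.69, -3.59, -4.27 and -2.95 at week 11, a change of -2.24 ± 0.47 (adjusted p = 0.00467), and Slc17a8, or VGLUT3, changed by -1.30 ± 0.21. Slc17a6 also stands in the list of brainstem and deep nuclei, and the medians of that list moved with it (0.09, -0.10, -1.75, -1.75 and -1.58 at P10, -2.18, -1.53, -2.36, -2.35 and -2.21 at week 11). Slc17a7, or VGLUT1, was called higher at 1.70 ± 0.57, but not in any fit without a single mouse except those without P10 mouse 10 or week 11 mouse 33 (adjusted p 0.0666 to 0.0984). The chloride exporter Slc12a5, or KCC2, which makes GABA inhibitory, rose by 1.17 ± 0.29, and the importer Slc12a2, or NKCC1, rose as well (0.65 ± 0.16). The inhibitory vesicular transporter Slc32a1 did not pass (0.44 ± 0.25). Slc17a7 and Slc12a2 did not pass with slide as a random block (adjusted p 0.147 and 0.0755). Slc17a6, Slc17a8, Slc17a7, Slc12a5 and Slc12a2 were not called with slide as a fixed block over all 30 arrays (changes -1.69, -0.89, 1.21, 0.76 and 0.41, adjusted p 0.128 to 0.409). The change of Slc17a7 was 0.99 and that of Slc12a2 0.13 in the Cy5 channel alone.

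Synaptic vesicle and fusion proteins rose in 9 of 18 members and fell in 1 (median 0.67). The SNARE protein Snap25 read -0.75, -0.04, -0.47, -0.35 and 0.17 at P10 and 2.48, 1.94, 1.25 and 2.07 (mouse 33 not usable) at week 11, a change of 2.22 ± 0.25. The active zone protein Rims1 rose by 1.37 ± 0.18 and the vesicle SNARE Vamp1 by 1.58 ± 0.16. Stx1a, the plasma membrane SNARE that pairs with Snap25, fell, from 0.91, 0.08, -0.43, -0.96 and -0.11 to -2.24, -2.28, -1.87, -2.15 and -2.00, a change of -2.00 ± 0.28. For synaptic genes the calls numbered 6 with slide as a random block, 5 as a fixed block and 16 without P10 mice 1 and 2, and the median was 0.34 with slide as a fixed block. Vamp1 did not pass with slide as a fixed block (change 0.28, adjusted p 0.507). The change of Rims1 was 0.89 with slide as a fixed block. The change of Snap25 was 1.34 in the Cy5 channel alone. Snap25 was saturated on 1 week 11 array, so its change may be understated.

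Astrocyte and Bergmann glia markers moved both ways, 6 of 16 higher and 3 lower (median 0.87), beside 13.8% and 15.2% of all genes. Etnppl, an astrocytic lyase of ethanolamine phosphate, showed the largest rise among the named genes of all lists, 20.3-fold. It read -0.43, 0.10, -0.41, -0.43 and 0.75 at P10 and 4.40, 4.35, 4.36 and 3.93 (mouse 32 not usable) at week 11, a change of 4.34 ± 0.24 (adjusted p = 7.21e-06). The gap junction gene Gjb6 rose by 1.57 ± 0.20 and S100b, a calcium-binding protein, by 1.78 ± 0.24. Several of the commonest astrocyte markers fell instead: Aldh1l1 (-0.90 ± 0.13), the intermediate filament gene Gfap (-1.53 ± 0.20), usable on 3 arrays at P10 and 4 at week 11, and the water channel gene Aqp4 (-0.85 ± 0.23). Aldh1l1 read 0.39, 0.30, 0.03 and 0.08 (mouse 10 not usable) at P10 and -0.67, -0.93, -0.76, -0.52 and -0.61 at week 11, without overlap. The call of Aqp4 was lost without P10 mouse 5 (adjusted p 0.0546). For astrocyte markers the calls numbered 8 with slide as a random block and 5 as a fixed block, and the median was -0.04 with slide as a fixed block and 0.51 with the probes of a gene averaged. Aqp4 was not called with slide as a random block (adjusted p 0.13). Gjb6 and Aqp4 did not pass with slide as a fixed block (changes 0.69 and -0.49, adjusted p 0.319 and 0.637). The change of Aldh1l1 was -1.38, that of Gfap -0.39 and that of Aqp4 -0.51 in the Cy5 channel alone. S100b was saturated on 1 week 11 array, so its change may be understated.

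Markers of immature and radial glia fell in 5 of 8 members and rose in none (median -0.90). Hes5, a target of Notch, read 0.31, 0.57 and -0.62 (mice 1 and 5 not usable) at P10 and -2.83, -2.86, -2.50, -2.71 and -2.58 at week 11, a change of -2.78 ± 0.24, and its relative Hes1 changed by -0.76 ± 0.16. Fabp7, the brain lipid-binding protein of radial and young Bergmann glia, changed by -2.14 ± 0.36, and the receptor phosphatase Ptprz1 by -1.84 ± 0.45. Fabp7 read -2.10, -1.95, -0.21 and -1.49 (mouse 33 not usable) at week 11, where mouse 23 lay highest. For immature glia markers the calls numbered 4 with slide as a random block and 3 as a fixed block, and the median was -0.57 with the probes of a gene averaged. Hes1 and Ptprz1 were not called with slide as a fixed block over all 30 arrays (changes -0.73 and -1.49, adjusted p 0.211 and 0.227). The change of Fabp7 was -1.14 and that of Ptprz1 -3.67 in the Cy5 channel alone. Fabp7 was saturated on 2 P10 arrays, so its change may be understated.

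Oligodendrocyte precursor markers fell in 5 of 8 members and rose in none (median -1.28), and the 5 calls held with slide as a random or fixed block. Pdgfra, the receptor that defines the precursors, read 0.39, -0.15, -0.26, -0.68 and -1.05 at P10 and -2.11, -1.73, -2.20, -2.24 and -2.31 at week 11, a change of -1.77 ± 0.23. Enpp6, of newly differentiating oligodendrocytes, changed by -2.05 ± 0.21, the growth factor gene Bmp4 by -1.20 ± 0.13, and the committed precursor receptor Gpr17 by -2.67 ± 0.37. Of the myelin genes, 2 of 20 rose, 3 fell and 15 did not pass (median -0.26), beside 13.8% and 15.2% of all genes. Apod (1.62 ± 0.27) and transferrin, Trf (1.45 ± 0.30), rose, while Tspan2 (-0.87 ± 0.20) and Ugt8a (-1.14 ± 0.29), which makes galactocerebroside, were called lower. Trf read -0.09, 0.51, -1.24, -1.21 and -0.27 at P10 and 1.12, 0.94, 0.92, 0.77 and 1.19 at week 11. P10 mice 5 and 7 read lowest and mouse 2 highest of their age in both Trf and Ugt8a. Without P10 mice 1 and 2 the change of Ugt8a was -0.72. The myelin calls numbered 8 without P10 mouse 5. For myelin genes the calls numbered 3 with slide as a random block and 3 as a fixed block, and the median was 0.00 with slide as a fixed block, 0.18 without P10 mice 1 and 2 and -0.12 with median centring. Ugt8a did not pass with slide as a random block (adjusted p 0.0511). Trf and Ugt8a were not called with slide as a fixed block over all 30 arrays (changes 1.28 and -1.44, adjusted p 0.0598 and 0.156). The change of Tspan2 was -1.33 with slide as a fixed block. Tspan2 was not called with scan day as a fixed block (change -1.06, adjusted p 0.345).

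Endothelial genes changed in both directions, 5 of 11 higher and 2 lower, beside 13.8% and 15.2% of all genes. Kdr, the main receptor of vascular endothelial growth factor, read -0.31, -0.23, 0.01, -0.40 and -0.48 at P10 and -2.07, -1.35, -1.80, -1.79 and -2.28 at week 11, a change of -1.58 ± 0.17 (adjusted p = 9.24e-05). The tight junction gene Cldn5 fell as well (-1.08 ± 0.17). The efflux pump gene Abcb1a (1.31 ± 0.15), the organic anion transporter Slco1a4 (1.34 ± 0.19) and Ly6c1 (1.84 ± 0.27) rose. Among genes of meninges and fibroblasts 2 of 12 rose and 3 fell, where 13.8% and 15.2% of all genes did. The collagen gene Col3a1 changed by -1.88 ± 0.20 and Col1a1 by -1.62 ± 0.40, with week 11 mouse 23, at -0.01, apart from the other adults, which lay at -2.22 to -2.18. Ogn (1.05 ± 0.19) and Mgp (0.96 ± 0.20), of mature connective tissue, rose. For meningeal genes the calls numbered 3 with slide as a random block and 1 as a fixed block. Col1a1 was not called with slide as a random block (adjusted p 0.0503). Kdr, Abcb1a, Col1a1, Ogn and Mgp did not pass with slide as a fixed block (changes -1.02, 0.75, -0.96, 0.94 and 0.13, adjusted p 0.0718 to 0.9). The change of Kdr was -0.88, that of Abcb1a 2.18 and that of Ogn 0.63 in the Cy5 channel alone.

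Hyalectans, the proteoglycans of the brain's matrix, and their link proteins changed in both directions: 2 of 10 rose and 4 fell. Over all genes 13.8% rose and 15.2% fell. Neurocan, Ncan, the juvenile hyalectan, read 0.39, -0.14 and -0.57 (mice 2 and 10 not usable) at P10 and -3.51, -3.34 and -2.95 (mice 32 and 33 not usable) at week 11, a change of -3.16 ± 0.27 on 3 usable arrays at each age. Versican, Vcan, changed by -1.36 ± 0.28. The adult link proteins Hapln4 and Hapln2, which sit at inhibitory synapses and nodes of Ranvier, rose by 1.46 ± 0.28 and 1.58 ± 0.33. Hapln4 read 0.44, 0.81, -0.73, -0.71 and 0.13 at P10 and 1.45, 1.28, 1.24, 1.50 and 1.78 at week 11, without overlap. Hapln1 (-0.85 ± 0.25) and the tenascin Tnc (-1.03 ± 0.30) were called lower, but Hapln1 was not called without P10 mouse 2 or week 11 mice 23, 32 or 33, nor Tnc without P10 mice 2, 5 or 7 or week 11 mice 18, 20 or 33 (adjusted p 0.0512 to 0.0642). Without P10 mice 1 and 2 Hapln1 changed by -0.43. Brevican, Bcan (-0.52 ± 0.38), aggrecan, Acan (-0.06 ± 0.12), Hapln3 (-0.01 ± 0.11) and Tnr (0.03 ± 0.14) did not pass, and Bcan turned to 0.15 and Acan to 0.08 without P10 mice 1 and 2. Tnc was not called with slide as a random block (adjusted p 0.111). Tnc and Hapln1 did not pass with slide as a fixed block (changes -1.69 and -0.63, adjusted p 0.0508 and 0.286). Hapln2 was not called with scan day as a fixed block (change 1.60, adjusted p 0.092). The change of Hapln1 was -0.56 in the Cy5 channel alone.

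Markers of cells that could enter the dissection were read beside these results, and their part in them was not tested. Microglial markers were called lower in 3 of 14 and higher in none, beside 15.2% of all genes called lower, Cd68 by -0.80 ± 0.15. The call of Cx3cr1 (-0.57 ± 0.19) was lost without any of P10 mice 1, 2 or 5 or week 11 mice 20, 23, 32 or 33 (adjusted p 0.068 to 0.104), and its change was -0.36 without P10 mice 1 and 2. P2ry12, a nucleotide receptor of resting microglia, changed by -0.58 ± 0.16. Aif1 did not pass (-0.64 ± 0.23, adjusted p = 0.0661). For microglial markers the calls numbered 1 with slide as a random block, 0 as a fixed block and 1 without P10 mice 1 and 2. Choroid plexus markers were called in none of 7 members, but their medians ran from -1.35 to 1.56 over the P10 mice and from -2.09 to 0.84 over the week 11 mice. Otx2 came closest (-1.08 ± 0.37, adjusted p = 0.0513), and 4 members were called with slide as a fixed block. Of erythrocyte genes 1 of 5 was called, beside 29% of all genes in either direction. The count was 0 without any of P10 mice 1, 2 or 5, without any single week 11 mouse and with slide as a random or fixed block, and 2 without P10 mouse 10. Haemoglobin gene Hba-a1 read 1.27, 1.44, 0.19, -0.34 and -0.78 at P10, highest in mice 1 and 2. Of brainstem and deep nuclei markers 1 of 8 was called, Slc17a6, beside the same 29% of all genes. For brainstem markers the calls numbered 1 with slide as a random block, 0 as a fixed block and 2 without P10 mice 1 and 2. P2ry12 and Cx3cr1 did not pass with slide as a random block (adjusted p 0.122 and 0.185). Cd68, P2ry12 and Cx3cr1 were not called with slide as a fixed block over all 30 arrays (changes -0.37, -0.83 and -0.50, adjusted p 0.263 to 0.547). The change of P2ry12 was 0.26 and that of Cx3cr1 -1.06 in the Cy5 channel alone. Tph2, of serotonin neurons, read 1.19, -0.91, -3.71, -3.52 and -2.99 at P10, and at week 11 it read -3.97 to -3.51, so P10 mouse 1, and mouse 2 less so, read above the other 8 mice.

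Genes of cholesterol synthesis fell. Of 20 enzymes 16 were called lower and none higher (median -1.13). Sqle, squalene epoxidase, read 0.03, -0.01, -0.54 and -0.21 (mouse 1 not usable) at P10 and -2.03, -2.23, -1.92, -1.90 and -1.83 at week 11, a change of -1.80 ± 0.14 (adjusted p = 3.39e-05). Nsdhl changed by -1.61 ± 0.14, the demethylase Cyp51 by -1.62 ± 0.15, and Dhcr7, which makes the last step, by -1.70 ± 0.17. The week 11 mice lay below all P10 mice in each of the 4. Slide as a random block left 15 calls and as a fixed block 10. Of the 20 genes, 14 matched RefSeq's promoter table, with 17 windows. CCAAT stood in 14 of these (82.4%, against 33.8% of all windows), and at least 1 window of each of the 14 genes had it. The sterol regulatory element, searched as TCACNCCAC on both strands, stood in 1 window (5.88%, against 1.05% of all). The 150 bases before the start follow for the 4 members with the smallest p that have a single window with CCAAT there, which names Mvd and Tm7sf2 for their promoters. CCAAT is in capitals on either strand (GRCm38.p6).
Nsdhl, chrX:72918371-72918520, plus strand: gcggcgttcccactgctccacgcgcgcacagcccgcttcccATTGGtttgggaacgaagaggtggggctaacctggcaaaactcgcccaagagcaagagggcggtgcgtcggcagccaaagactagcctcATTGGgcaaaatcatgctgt
Cyp51, chr5:4104698-4104847, minus strand: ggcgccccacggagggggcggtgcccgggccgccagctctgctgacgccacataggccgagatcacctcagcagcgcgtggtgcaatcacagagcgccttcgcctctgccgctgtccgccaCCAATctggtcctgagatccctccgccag
Mvd, chr8:122443423-122443572, minus strand: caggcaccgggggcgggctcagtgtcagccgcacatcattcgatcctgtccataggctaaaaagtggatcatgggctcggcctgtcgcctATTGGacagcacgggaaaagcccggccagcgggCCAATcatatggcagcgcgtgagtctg
Tm7sf2, chr19:6067851-6068000, minus strand: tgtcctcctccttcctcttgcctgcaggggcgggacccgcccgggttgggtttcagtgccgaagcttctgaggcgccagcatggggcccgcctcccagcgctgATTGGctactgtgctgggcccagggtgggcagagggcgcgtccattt
Nsdhl holds 2 matches, Mvd 2, Cyp51 1 and Tm7sf2 1. Binding of a factor was not measured.

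Ketone bodies are a fuel of the suckling brain. Of 8 genes for their use and transport 5 fell and 1, not reported here, rose. Both directions together gave 6 calls, and 4 with slide as a random block. The monocarboxylate transporter Slc16a1, or MCT1, read -0.22, -0.10, -0.20, -0.39 and -0.60 at P10 and -1.39, -1.35, -1.40, -1.48 and -1.53 at week 11, a change of -1.13 ± 0.11 (adjusted p = 6.25e-05). The ketolytic enzymes Acat1 (-0.91 ± 0.11) and Bdh1 (-1.02 ± 0.14) fell with it, Bdh1 on 3 usable arrays at each age. Glycolysis genes rose in 7 of 15 and fell in none (median 0.61). Pfkm, the muscle-type phosphofructokinase, read 0.36, -0.31, -0.27 and 0.10 (mouse 1 not usable) at P10 and 1.18, 1.07, 1.32, 1.05 and 0.90 at week 11, a change of 1.14 ± 0.16. Neuronal enolase, Eno2, rose by 1.34 ± 0.33 and Pgk1 by 0.61 ± 0.17. Pgam1, phosphoglycerate mutase, was called at 0.67 ± 0.19, but the call ended on leaving out P10 mouse 5 or week 11 mouse 20, 32 or 33 (adjusted p 0.0528 to 0.0767). The glycolytic count was 3 to 4 without P10 mouse 5 or week 11 mice 20 or 32. For glycolysis genes the calls numbered 2 with slide as a random block, 2 as a fixed block and 11 without P10 mice 1 and 2, and the median was 0.27 with slide as a fixed block and 0.36 in the Cy5 channel alone. Oxidative phosphorylation and the citrate cycle rose in 4 of 20 genes, beside 13.8% of all genes, with Sdha at 0.85 ± 0.16 and Uqcrc2 at 0.52 ± 0.13. Cox7a1, a cytochrome oxidase subunit, was called at 0.78 ± 0.22, but the call ended on leaving out P10 mouse 2 or 5 or week 11 mouse 23, 32 or 33 (adjusted p 0.0545 to 0.0578). Ndufv1, of complex I, was called at 0.47 ± 0.15, but the call ended on leaving out P10 mouse 5 or 7 or week 11 mouse 18, 20, 23, 32 or 33 (adjusted p 0.0607 to 0.104). Without P10 mice 1 and 2 the change of Ndufv1 was 0.74. The count of the list was 2 without any of P10 mouse 5 or week 11 mice 32 or 33. For oxidative genes the calls numbered 1 with slide as a random block and 2 as a fixed block. Pgk1, Uqcrc2, Pgam1, Cox7a1 and Ndufv1 did not pass with slide as a random block (adjusted p 0.0587 to 0.0962). Pfkm, Pgk1, Sdha, Uqcrc2, Pgam1 and Cox7a1 were not called with slide as a fixed block over all 30 arrays (changes 0.76, 0.54, 0.55, 0.01, 0.51 and 0.36, adjusted p 0.0894 to 0.98). The change of Eno2 was 0.65 with slide as a fixed block. Eno2 and Ndufv1 were not called with scan day as a fixed block (changes 0.87 and 0.68, adjusted p 0.351 and 0.0616). The change of Pfkm was 0.69, that of Pgk1 0.35, that of Uqcrc2 0.18, that of Pgam1 0.13, that of Cox7a1 0.54 and that of Ndufv1 0.15 in the Cy5 channel alone. Pgam1 was saturated on 1 week 11 array, so its change may be understated.

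Of the circadian clock genes, 11 of 15 were called higher and none lower (median 0.73). The nuclear receptor gene Nr1d2, a repressor of the clock's positive limb, read -0.49, -0.48, -0.37, -0.47 and -0.19 at P10 and 1.54, 1.54, 0.96, 1.40 and 1.70 at week 11, a change of 1.83 ± 0.14 (adjusted p = 1.92e-05). Bhlhe40, a repressor of E-box transcription, rose by 1.98 ± 0.22, and the PAR bZIP factors Tef and Hlf, which act on D-box elements, by 1.30 ± 0.16 and 1.34 ± 0.18. Hlf read 0.27, 0.21, -0.24, -0.74 and 0.09 at P10 and 1.37, 1.26, 1.05, 1.31 and 1.29 at week 11, without overlap. The hour of death is not given in the labels, so its part was not tested. The E-box CACGTG stood in 5 of 18 promoter windows of 13 matched genes (27.8%, against 6.02% of all windows) and the D-box TTATGTAA in 1 (5.56%, against 0.819%). The clock calls numbered 9 with slide as a random block and 4 as a fixed block. Tef was not called with slide as a fixed block over all 30 arrays (change 0.87, adjusted p 0.191).

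Genes that respond to glucocorticoids rose in 8 of 11 members and fell in 1 (median 1.14). Pdk4, which spares glucose, rose by 1.22 ± 0.15, the feedback inhibitor Errfi1 by 1.20 ± 0.16, and the metallothionein Mt1 by 1.92 ± 0.28. The receptor itself, Nr3c1, read -0.35, -0.16, -0.72 and -0.37 (mouse 1 not usable) at P10 and 1.03, 0.74, 0.44, 0.56 and 0.94 at week 11, a change of 1.14 ± 0.16. Cdkn1a, the cell cycle inhibitor p21, was the exception and fell (-0.83 ± 0.17). Immediate early genes rose in 3 of 14 and fell in 1, where 13.8% and 15.2% of all genes did. Egr1 rose by 1.78 ± 0.33 and the phosphatase Dusp1 by 1.48 ± 0.33, whereas Egr2 fell (-1.08 ± 0.19). Arc, of active synapses, was called at 0.74 ± 0.24, but the call ended on leaving out P10 mouse 5, 7 or 10 or week 11 mouse 18, 20, 23, 32 or 33 (adjusted p 0.0667 to 0.0927). Without P10 mice 1 and 2 the change of Arc was 1.14. Egr1 read 1.17, 1.42, 2.58, 1.37 and 1.14 at week 11, highest in mouse 23. The count called was 7 without week 11 mouse 20. Immediate early genes respond to stimulation within minutes, and the manner of death, which cannot be told apart from age, is given above. For glucocorticoid-responsive genes the median was 0.69 with slide as a fixed block and 0.71 in the Cy5 channel alone. Arc did not pass with slide as a random block (adjusted p 0.0599). Pdk4, Errfi1, Egr2 and Arc were not called with slide as a fixed block over all 30 arrays (changes 0.67, 0.78, -1.16 and 0.56, adjusted p 0.0593 to 0.317). The change of Cdkn1a was -1.49 with slide as a fixed block. The change of Errfi1 was 0.64, that of Nr3c1 0.71 and that of Arc 0.45 in the Cy5 channel alone. Mt1 was saturated on 1 week 11 array, so its change may be understated.

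Interferon response and antigen presentation genes rose in 8 of 13 members (median 0.87). Ifit3 read 0.67, 0.05, -0.66, -0.48 and -0.08 at P10 and 2.07, 2.87, 2.15, 2.96 and 2.25 at week 11, a change of 2.56 ± 0.26 (adjusted p = 7.3e-05), and Ifit1 rose by 2.17 ± 0.37. Mice 20 and 32 were the highest adults in both. The class I genes H2-D1 (0.94 ± 0.12) and H2-K1 (1.18 ± 0.20) rose, and their probes may share targets. Tap1, the peptide pump, was called lower (-0.54 ± 0.14), though not without P10 mouse 2 (adjusted p 0.0563). For interferon response genes the calls numbered 4 with slide as a random block and 3 as a fixed block. Tap1 did not pass with slide as a random block (adjusted p 0.0602). Ifit1, H2-D1 and Tap1 were not called with slide as a fixed block over all 30 arrays (changes 2.01, 0.64 and -0.28, adjusted p 0.0767 to 0.572). The change of Tap1 was -0.19 in the Cy5 channel alone.

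Genes of thyroid hormone action, which times cerebellar maturation, gave 2 rises and 3 falls among 9, beside 13.8% and 15.2% of all genes. Crym, a cytosolic thyroid hormone binding protein, read 0.54, 0.07, -0.23, -0.41 and -0.23 at P10 and -2.01, -1.88, -1.77, -1.54 and -1.69 at week 11, a change of -1.73 ± 0.17 (adjusted p = 6.56e-05). The heterodimer partner Rxrg fell too (-1.24 ± 0.21), while Hr, the hairless corepressor induced by the hormone, rose (1.22 ± 0.28). Klf9, a second target of the hormone, was called at 0.52 ± 0.16, but the call ended on leaving out P10 mouse 7 or week 11 mouse 18, 20, 23 or 33 (adjusted p 0.0579 to 0.0706). Among imprinted genes of growth control 4 of 10 fell, where 15.2% of all genes did. Besides Cdkn1c these included Igf2 (-0.75 ± 0.15) and Mest (-1.71 ± 0.38). Of the insulin-like growth factor system 3 of 9 fell and 1 rose, beside 15.2% and 13.8% of all genes, with Igfbp2 at -1.60 ± 0.34. Plagl1, an imprinted zinc-finger factor, was called at -0.82 ± 0.24, but the call ended on leaving out P10 mouse 2 or 5 or week 11 mouse 23, 32 or 33 (adjusted p 0.0522 to 0.0797). Igfbp4, a binding protein of the factors, was called at -0.66 ± 0.20, but the call ended on leaving out P10 mouse 1, 2, 7 or 10 or week 11 mouse 18, 23 or 32 (adjusted p 0.0517 to 0.078). The call of Igf2r, the one rise in both lists, at 0.51, was lost without any of 6 mice taken singly, P10 mice 1, 2 and 7 and week 11 mice 18, 20 and 23 (adjusted p 0.0571 to 0.0786). For thyroid hormone genes the calls numbered 3 with slide as a random block and 2 as a fixed block. For imprinted genes the calls numbered 3 with slide as a random block and 3 as a fixed block. For growth factor genes the calls numbered 2 with slide as a random block and 3 as a fixed block. The thyroid count was 3 without any of week 11 mice 18, 20, 23 or 33, the imprinted count 3 without P10 mouse 2, and the growth factor count 2 without any of P10 mice 2 or 7 or week 11 mice 18 or 23. Klf9, Plagl1, Igfbp4 and Igf2r did not pass with slide as a random block (adjusted p 0.0563 to 0.184). Crym, Rxrg, Hr, Igf2, Klf9 and Igf2r were not called with slide as a fixed block over all 30 arrays (changes -1.16, -0.74, 0.60, -0.60, 0.46 and 0.28, adjusted p 0.0726 to 0.511). The change of Mest was -2.59 and that of Igfbp4 -1.39 with slide as a fixed block. Igfbp2 and Plagl1 were not called with scan day as a fixed block (changes -1.10 and -0.85, adjusted p 0.175 and 0.0522). The change of Klf9 was -0.26, that of Plagl1 -0.38, that of Igfbp4 -0.56 and that of Igf2r 0.55 in the Cy5 channel alone.

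Neuronal splicing and RNA-binding genes fell in 6 of 11 and rose in none (median -0.47), with Elavl2 at -1.68 ± 0.34, Elavl3 at -0.61 ± 0.13, Rbfox2 at -0.84 ± 0.20 and Khdrbs3 at -0.80 ± 0.16. Of chromatin genes 5 of 15 fell and 1 rose, beside 15.2% and 13.8% of all genes. Uhrf1, which brings the maintenance methyltransferase to replicated DNA, fell 11.8-fold (-3.56 ± 0.34), from -1.11, -0.14, 0.96, 0.88 and -0.20 to -3.68, -3.30, -3.71, -3.47 and -3.28. Hmgb2, of dividing cells, changed by -2.75 ± 0.52, the remodelling subunit Smarcc1 by -1.16 ± 0.15 and the histone methyltransferase Suv39h1 by -0.61 ± 0.10. Ribosomal protein genes fell in 6 of 16, for example Rplp0 (-1.26 ± 0.24) and Rpl10 (-0.59 ± 0.10). Rps2 changed by -0.82 ± 0.18. Rpl18 changed by -0.48 ± 0.13. Many processed copies of these genes exist, and signal from them was not tested. For splicing genes the calls numbered 5 with slide as a random block and 3 as a fixed block, and the median was -0.28 in the Cy5 channel alone and -0.27 with median centring. For ribosomal protein genes the calls numbered 3 with slide as a random block and 4 as a fixed block. Rpl18 was not called with slide as a random block (adjusted p 0.0688). Elavl3, Khdrbs3 and Rps2 did not pass with slide as a fixed block (changes -0.69, -0.46 and -0.30, adjusted p 0.152 to 0.427). Rpl10 and Rpl18 were not called with scan day as a fixed block (changes -0.40 and -0.45, adjusted p 0.148 and 0.0844). The change of Elavl3 was -0.28, that of Khdrbs3 -1.42 and that of Rplp0 -0.42 in the Cy5 channel alone. Rplp0 was saturated on 1 P10 array and 1 week 11 array and Rps2 was saturated on 2 P10 arrays, so these changes may be understated.

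The largest changes over all genes included members of these lists and genes outside every list. After Etnppl, Crtam, a surface molecule known from lymphocytes, rose most, 13.4-fold (3.74 ± 0.55), reading -2.17, 0.04, -0.34, 0.15 and 1.43 at P10 and 3.59, 3.48, 3.37 and 3.81 (mouse 33 not usable) at week 11. Cbx7, a Polycomb subunit that reads histone methylation, rose by 3.26 ± 0.16. It read -0.40, -0.21, -0.48, -0.27 and 0.08 at P10 and 2.72, 3.00, 3.50, 2.76 and 3.06 at week 11, with an adjusted p of 1.45e-06. The repressor Bcl6 rose by 2.99 ± 0.30, the brain-expressed Polo-like kinase Plk5, which lacks a full kinase domain, by 2.68 ± 0.30, the protease inhibitor Serpinb1a by 2.77 ± 0.28 and the metallothionein Mt2 by 2.68 ± 0.43. Olfm3 (2.64 ± 0.22), Chil5 (2.62 ± 0.32) and Atoh7 (2.61 ± 0.24) rose as well, with Prl2c3 (3.06 ± 0.44) and Prl2c5 (2.93 ± 0.44), prolactin-family genes so alike that their probes may read a common signal. Mt2 did not pass with slide as a fixed block (change 1.72, adjusted p 0.0995). The change of Prl2c3 was 1.87 and that of Prl2c5 1.86 with slide as a fixed block. The change of Mt2 was 1.35 in the Cy5 channel alone. That of Atoh7 was 1.7 with the probes of a gene averaged. Mt2 was saturated on 1 week 11 array, so its change may be understated.

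Among the falls, 6 of the 15 largest were genes of the mitotic apparatus or of cohesion: Pbk (-4.02 ± 0.43, a 16.2-fold fall), Mki67, Aurkb (-3.69 ± 0.43), Spc25 (-3.57 ± 0.38), Cenpa (-3.57 ± 0.45), the centromeric histone, and Esco2 (-3.54 ± 0.44). Aurkb and Esco2 were well above background on only 2 of 5 arrays at week 11, so their falls may be understated. Uhrf1 and the neuronal genes Sox11, Dcx, Insm1 and Nhlh1 stood beside them. The rest were Tox3 (-3.68 ± 0.29), a nuclear factor, Mex3a (-3.44 ± 0.49), an RNA-binding protein of progenitors, Igfbpl1 (-3.36 ± 0.53) and Cd1d1 (-3.47 ± 0.25), a lipid-presenting molecule. Tox3 read -0.46, -0.60, 0.42, 0.17 and -0.62 at P10 and -3.99, -2.89, -4.41, -4.20 and -3.99 at week 11, and Cd1d1 -0.70, -0.12, 0.44, 0.38 and -0.28 and -3.87, -2.79, -3.80, -3.65 and -3.53. In both, mouse 1 lay among or near the other P10 mice. The change of Aurkb was -2.42 in the Cy5 channel alone.

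**Figure D4:**
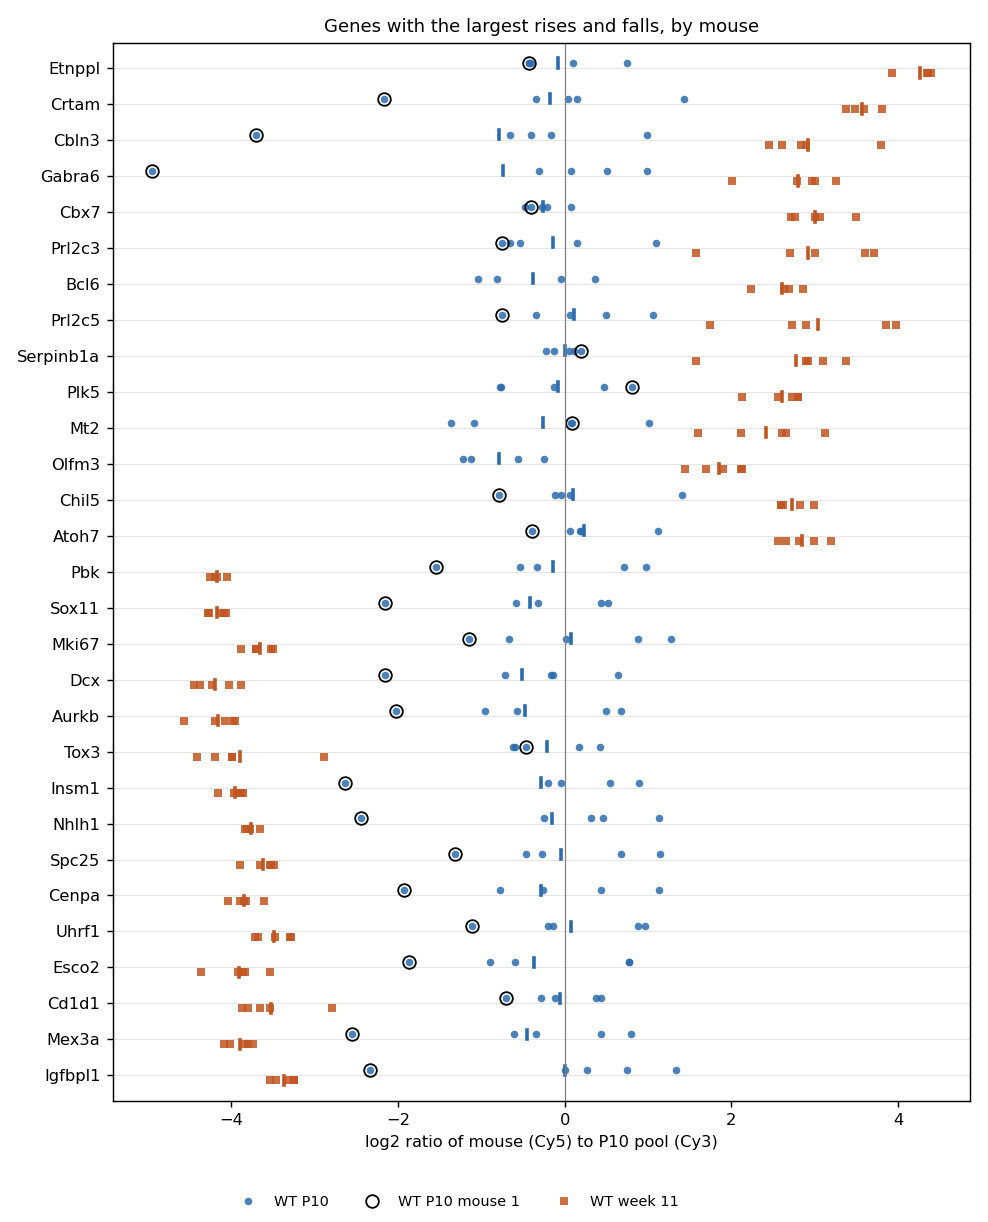
Log2 ratio of mouse to P10 pool for the genes named here among the 15 largest rises and the 15 largest falls whose ages did not overlap, 1 point per mouse: P10 in blue circles, week 11 in orange squares, vertical ticks the group mean, and a black ring around WT P10 mouse 1. Etnppl (4.34) heads the rises and Pbk (-4.02) the falls, and mouse 1 lies left of the other P10 mice in Gabra6, Cbln3 and most of the falling genes.

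KI mice, which share neither animals nor arrays with the WT groups but share the Cy3 pool and some slides, were compared over the same interval. Of 31876 probes tested in both, 12152 were called in KI (38.1%). Of the 8298 called in WT, 8243 (99.3%) changed in the same direction in KI, 6644 were called there in that direction and 0 were called in the opposite one. A test of the difference between the WT and KI changes, in limma on 21 arrays, called 0 of 31876 probes (0%), while 1548 had an unadjusted p under 0.05. The medians of several lists lay close: -2.60 in WT and -2.34 in KI for mitosis, and 1.82 and 1.99 for granule neurons. For cholesterol synthesis they were -1.13 and -1.45, and for the clock 0.73 and 0.96. Myelin lay further apart, at -0.26 and -0.78, with 3 members called lower in WT and 8 in KI. Its WT median was 0.18 without WT P10 mice 1 and 2. Inhibitory interneurons had 0.50 and 0.13, and their WT median was 0.91 without WT P10 mice 1 and 2. Microglial markers were called lower in 3 members in WT and 10 in KI. These counts of both lists stand beside 26.1% of all probes called in WT and 38.1% in KI, in either direction. Purkinje cell markers had medians of 1.13 and 0.87, with 13 rises in WT, and 11 rises and 1 fall in KI. The low P10 values of WT mouse 1 and KI mice 3 and 4, all of slide 1, enter the granule and Purkinje changes of both genotypes.

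**Figure D5:**
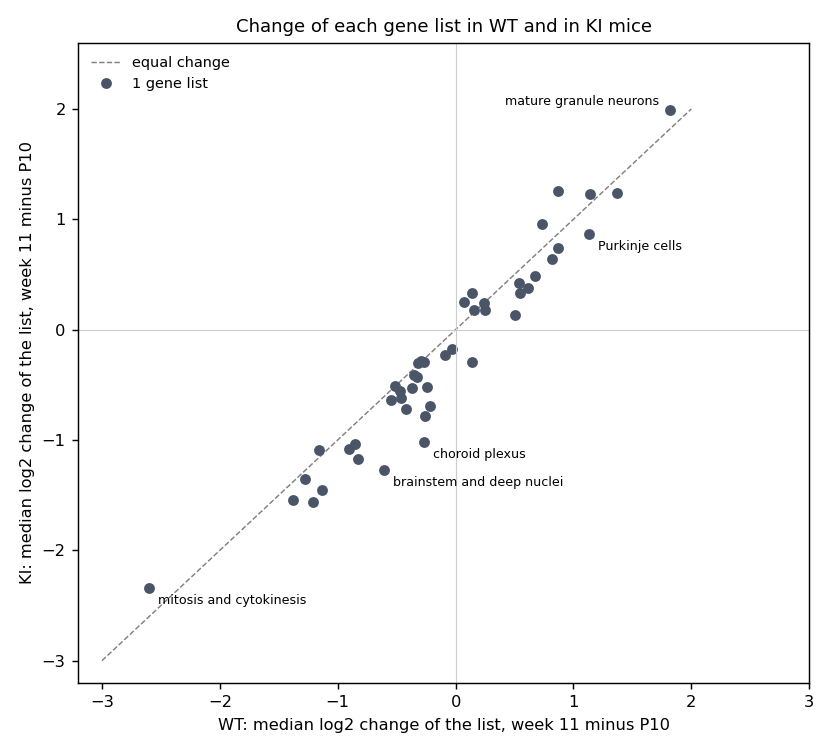
Median log2 change from P10 to week 11 of each of the 46 gene lists in WT mice (horizontal) and in KI mice (vertical), with the line of equal change dashed. The lists lie along the line from mitosis (-2.60 and -2.34) to mature granule neurons (1.82 and 1.99), and choroid plexus (-0.27 and -1.02) and brainstem markers (-0.61 and -1.27) lie below it. Without WT P10 mice 1 and 2 the WT median was -0.62 for choroid plexus and turned to 0.14 for brainstem markers. With slide as a fixed block these WT medians were -3.2 and -0.19.

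Atxn7, the gene altered in the KI mice and a subunit of the SAGA chromatin complex, rose in WT as well. It read -0.42, -0.22, 0.38, -0.71 and -0.07 at P10 and 0.97, 0.81, 1.13, 0.26 and 0.66 at week 11, a change of 0.97 ± 0.21 (adjusted p = 0.00574) or 1.96-fold. The highest P10 mouse, mouse 5, lay above the lowest adult, mouse 32, so the ages overlapped in that pair. Whether the probe lies in the altered part of the gene was not examined. In KI the change was 1.08.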

How the data were processed

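Whole cerebella of WT mice at P10 (n = 5) and week 11 (n = 5) were read on Agilent 2-colour arrays of 45018 spots, and 5 and 6 KI mice of the same ages were read beside them. Per the file headers, spot intensities and log10 ratios were made by the authors with Feature Extraction 9.5.3.1 and annotated on mm7, with per-spot detection, saturation and outlier calls (other units) deposited beside them. The authors' deposited value table holds log2 ratios of 1905 probes from BRB-ArrayTools after present-call and variability filters, per the labels. It correlated with the scanner ratios at -0.9997 to -0.9613, so its sign was turned where it served as an alternative. Its column medians of 0.068 to 1.14 show that it was not centred on 0, and its base of 2 follows from the scanner ratios.

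Mean signals of both channels were background-corrected (normexp, offset 50) and normalized within arrays by loess, control spots and flagged outliers having weight 0. Outlier spots were dropped, and spots of a probe averaged over 41174 probes. Testing required a Cy5 signal well above background on 4 or more arrays, and 3 or more usable arrays at each age. The ages were compared with limma 3.58.1 (R 4.3.3) on the 10 WT arrays, with adjustment over all 32092 probes tested. The WT and KI changes were compared in 1 limma fit on 21 arrays. Array number limits the precision, and the mice are separate animals by their label numbers.

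Genes were read by their brightest tested probe. Of the probes, 22951 were named by accession and 3097 by synonym through RefSeq's table (GRCm38.p6), 8661 kept the file's name and 6465 had none. Named are the 15 largest rises and falls (called, at least 4 usable arrays at each age, no overlap, clones not named), at most 4 members of each list, those with the smallest p, and any member called against most of its list, all members of the receptor, channel, transporter, tubulin and hyalectan lists where useful, and Atxn7. The members of the comparison, the lists, the motifs and the rules were chosen with earlier results of these data known. Tests were checked on simulated data with independent arrays. Arrays of a slide correlated at 0.504 in the real data, so the check does not cover slide. No slide or scan day held both WT ages. Some list members and genes with large changes are not reported here; they stay in the counts and medians.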

Additional observations from a re-analysis of the deposited data

Results flagged for a closer look

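In 27 of 450 groups of values (225 named genes at each age) 1 mouse lay apart from the others by a gap wider than Dixon's critical value. Chance passes that value in about 1 of 20 groups. The gaps were not spread evenly, with most of those at P10 in mouse 1, and the part of chance was not tested. The gap is read against the group's own range, and it can be small where the mice lie close together. At P10 mouse 1 read low in Gabra6 (-4.95, the others -0.31 to 0.99), Calb1 (-3.01, the others 0.08 to 1.20), Pcp2 (-2.58, the others 0.23 to 1.35), Gabrd (-2.38) and Boc (-0.69). Calb1 and Pcp2 are standard Purkinje cell markers. P10 mouse 7 read low in Kcnma1 (-0.73) and Kcnq5 (-0.57).

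At week 11 mouse 23 had more such gaps than any other mouse of its age. It read high in Col1a1 (-0.01, the others -2.22 to -2.18), Egr1 (2.58, the others 1.14 to 1.42), Marcksl1 (-1.95, the others -3.06 to -2.77), Tubb2b (-0.89), Tubb5 (-0.21), Sox4 (-0.71), Sema6a (-1.16) and Grin1 (1.26, the others 0.02 to 0.37), and low in Gabrb2 (0.41, the others 1.03 to 1.17). Kcnq5 was low in the same mouse (-1.48). Mouse 20 read apart in Tox3 (-2.89), Scn3b (-2.50), Dpysl3 (-2.37, the others at -2.40), Cyp51 (-2.25) and Serpinb1a (1.58). Mouse 32 did so in S100b (2.28) and Bmp4 (-0.97), mouse 33 in Etnppl (3.93) and Shh (0.81), and mouse 18 in Rxrg (-1.67).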

How the results depend on the processing

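Each value was recomputed under the other settings one at a time. The 8370 calls (4041 higher, 4329 lower) came to 4622 (2167 and 2455) with slide as a fixed block over all 30 arrays, 5141 (2356 and 2785) with slide as a random block, 4494 (2118 and 2376) with scan day as a fixed block, and 231 (77 and 154) when tested against a 2-fold change. Without single mice they ran from 6834 to 8891 (3327 to 4144 higher, 3505 to 4747 lower), fewest without week 11 mouse 18 and most without P10 mouse 1. The remaining settings stayed within 1.5 times, from 6530 with scaling between arrays to 11473 with the Cy5 channel alone, and without both P10 mice of slide 1, a setting added after the data were seen, the count was 8739. Averaging a gene's probes gave 5148 called genes in place of 5194. Of 1833 probes shared with the authors' deposited table, the table's values called 1576 and the scanner values 1491. The WT and KI changes differed in 0 probes by limma under the 4 settings tried and without each mouse, with 1548 under an unadjusted p of 0.05. Among the 8370 called probes, 220 had the opposite sign with slide as a fixed block over all 30 arrays. Of 225 named genes the direction of a called change turned in Ptch1 (0.00) with scan day as a fixed block, and in Klf9 (-0.26) and P2ry12 (0.26) in the Cy5 channel alone. The cause was not tested. No paired analysis was possible because WT P10 and WT week 11 share no mouse numbers, and no slide holds both ages. Low signal limits the 193 genes not well above background on any week 11 array and the 15 so at P10, whose changes may be understated.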

Other observations

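Members of the 46 lists without a tested probe, for which no value is given, included Ahsp, Birc5, Cacna1e, Ccna2, Crmp1, Ctss, Dio3, Dner, Gap43, Gapdh, Glra2, Glrb, Grm2, H2afz, Hbb-b1, Hemgn, Idh3a, Inpp5a, Kcnj13, Kcnk9, Nova1, Nova2, Nr4a3, Olig1, Rbfox1, Scn4b, Skor2, Tmem119 and Zbtb16. Called probes of 1 gene disagreed in direction in 51 of the 7152 genes with more than 1 tested probe.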
